A study of Mus musculus with 11 samples.

Results

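Chemokines are small secreted proteins that direct the movement of leukocytes, and their receptors are G protein-coupled receptors on the responding cells. The genes described here are the chemokines, their signalling receptors, and the atypical receptors that bind chemokines without G protein signalling, in mouse liver. They were taken by gene name: every row of the deposited count table named as a CC or CXC ligand (Ccl or Cxcl and a number), a CC or CXC receptor (Ccr, Cxcr), an atypical receptor (Ackr), or as Cx3cl1, Cx3cr1, Xcl1, Xcr1 or Ccrl2. Of the 55414 rows, 64 had such a name and 54 of these held 10 or more counts summed over the 11 livers. These 54 were 32 ligands, 17 signalling receptors and 5 atypical receptors including Ccrl2, and 44 of them passed the filter on low counts and were tested among 17038 genes.

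RNA was sequenced in bulk from liver of 11 male mice, all of genotype Clec4f-DTR, including the chow controls. In such mice the receptor for diphtheria toxin (DT) is driven by Clec4f, a gene of Kupffer cells, the resident macrophages of the liver, so that DT kills cells that express it. The study compared 3 groups: 3 mice on chow, 4 on a western diet with alcohol that received serial saline injections, and 4 on that diet that received serial DT injections, called here chow, saline and DT livers. The mice were 8 weeks old when the diets began and were fed for 16 weeks. Saline against chow asks what diet with alcohol changed. DT against saline asks what the toxin changed on the same diet, and DT against chow joins both. The chow labels name no injection, so diet with alcohol and injection cannot be told apart, and no group received DT on chow. The labels do not say whether livers came from separate litters or cages.

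Chemokine ligands are grouped by the spacing of their first cysteines into CC, CXC, CX3C and XC families. In liver they are known for bringing in neutrophils (ligands of Cxcr2), monocytes (ligands of Ccr2) and T cells (ligands of Cxcr3), and many are induced by NF-kB or by interferon. Atypical receptors take up ligands and so shape the gradients.

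The libraries held 43995217 to 58089531 counts each, and 3 counts, taken as the limit of detection, came to 0.0398 to 0.0773 CPM (counts per 1e6 counts of the library, scaled with TMM factors), for counting error only. Clec4f, the check of the labels, was at 45 ± 6.94 CPM in chow livers (mean ± SD, n = 3), 45.9 ± 2.55 in saline livers (n = 4) and 9.48 ± 3.98 in DT livers (n = 4). It fell by 2.28 on the log2 scale in DT against saline (SE 0.24, adjusted p = 0.00125, edgeR), and all 6 Kupffer cell markers of a list of 6 fell. In bulk RNA, fewer cells of a type and less RNA per cell cannot be told apart. Hepatocyte markers (5 genes, Alb among them) summed to 59675 to 107141 CPM over the 11 livers. DT liver 2 stood apart from the other 3 DT livers in several of the results below, and its values are given beside them.

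In saline against chow, 6 of the 44 tested genes rose (Cxcl1, Cxcl2, Ccl2, Ccl22, Ccl19 and Cx3cr1) and 2 fell (Cxcl13 and Ackr2). These are 13.6% and 4.55% of the tested members, where 2.45% of all tested genes rose and 3.13% fell. In DT against saline, 8 rose (Cx3cl1, Cx3cr1, Ackr3, Ccl21a, Cxcl16, Cxcl14, Cxcl11 and Cxcr3) and 2 fell (Cxcl13 and Ccl24). These are 18.2% and 4.55%, where 14.3% of all tested genes rose and 7.62% fell, so that the share of members that rose lay near that of all genes. In DT against chow, 25 rose and 3 fell, which is 56.8% and 6.82%, where 14.8% of all tested genes rose and 8.16% fell. The median log2 fold change of the 44 was 0.92 in saline against chow (0.85 with genes at 0 in chow set to their lower bounds), 0.74 in DT against saline and 1.98 in DT against chow. The medians of all tested genes were 0.00, 0.02 and -0.02. The 3 comparisons share livers, so their values are set side by side and not counted as separate evidence. By scaling to total counts alone, 15 members rose and 2 fell in DT against saline, where 30.4% of all tested genes then rose (5183 higher and 446 lower, against 2436 and 1298 with TMM). With a correction for GC content, 8 members rose and 2 fell in that comparison, where 1756 of all tested genes rose and 2916 fell, and 25 rose and 3 fell in DT against chow, where 2189 of all tested genes rose and 3535 fell (2528 and 1391 without it).

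**Figure D1:**
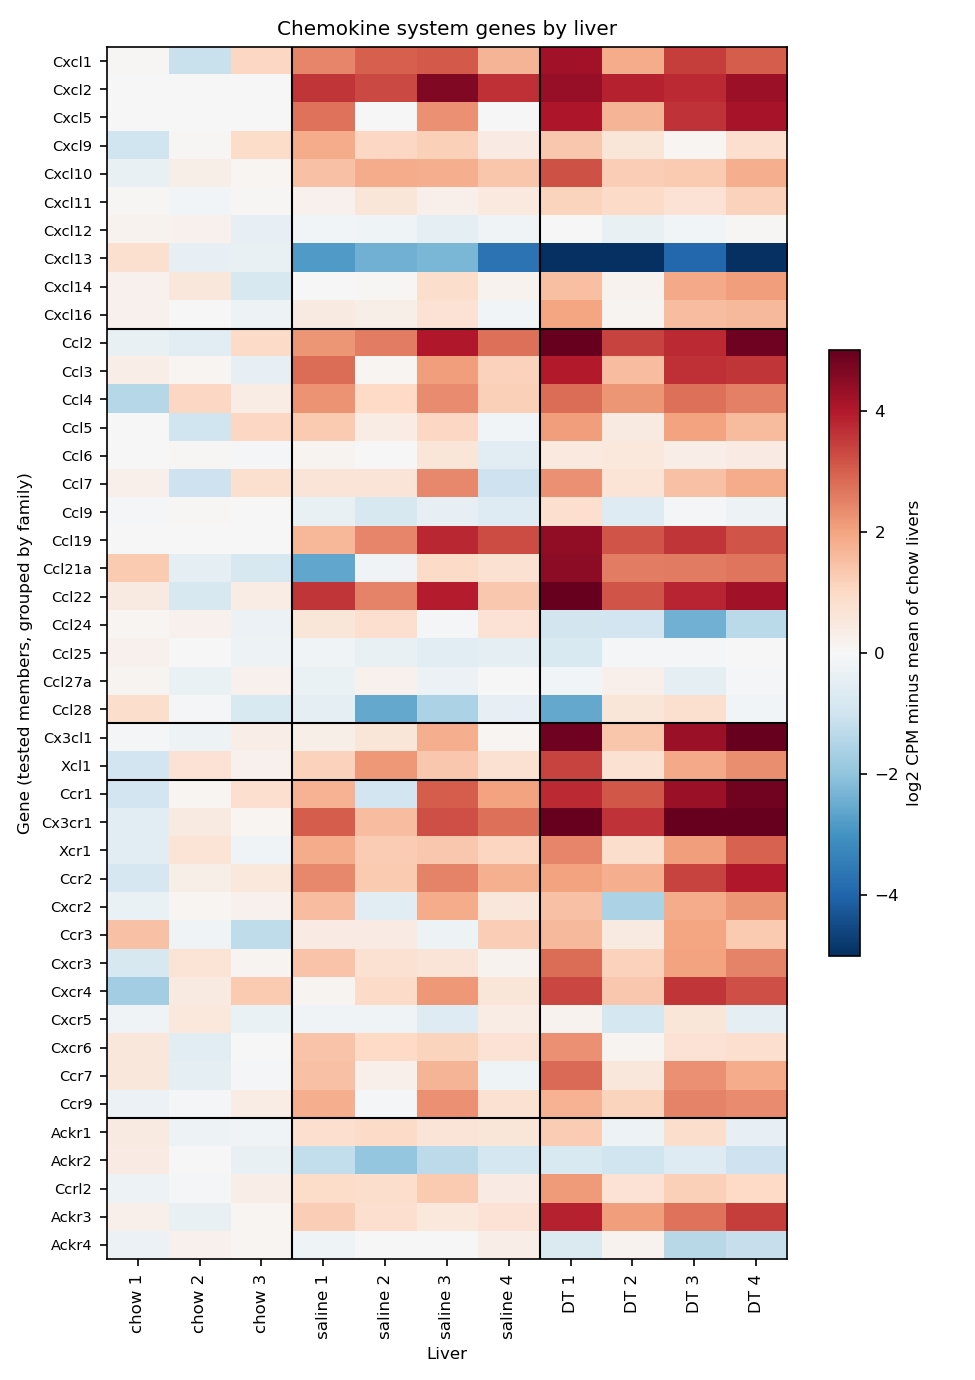
Each row is 1 of 43 tested chemokine system genes, grouped by family, and each column 1 liver. Colour gives the log2 CPM of the liver minus the mean of the 3 chow livers, with colours capped at 5 in either direction. DT livers 1, 3 and 4 lie above the saline range in 27 to 29 genes and DT liver 2 in 8, where 36.5% to 38.8% and 28.4% of all tested genes did.

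Cxcl1 and Cxcl2, neutrophil-attracting ligands of Cxcr2, rose with diet and alcohol. They lie side by side on mouse chromosome 5. Their promoter windows are shown because both hold a match to the NF-kB motif GGANNTTCC, searched on both strands in RefSeq windows of 300 bases, from 250 before to 50 after a start site. The windows are of GRCm38.p6, an earlier build than that of the authors' alignment, and are written 5′ to 3′ on the gene's strand with the match in capitals.
Cxcl1 (chr5:90890995-90891294, plus strand): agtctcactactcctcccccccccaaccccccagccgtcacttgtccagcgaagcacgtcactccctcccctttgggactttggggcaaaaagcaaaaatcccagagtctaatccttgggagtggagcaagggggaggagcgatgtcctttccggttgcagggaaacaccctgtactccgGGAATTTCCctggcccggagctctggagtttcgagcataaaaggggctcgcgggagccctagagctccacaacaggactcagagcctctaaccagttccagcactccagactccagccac
Cxcl2 (chr5:90903649-90903948, plus strand): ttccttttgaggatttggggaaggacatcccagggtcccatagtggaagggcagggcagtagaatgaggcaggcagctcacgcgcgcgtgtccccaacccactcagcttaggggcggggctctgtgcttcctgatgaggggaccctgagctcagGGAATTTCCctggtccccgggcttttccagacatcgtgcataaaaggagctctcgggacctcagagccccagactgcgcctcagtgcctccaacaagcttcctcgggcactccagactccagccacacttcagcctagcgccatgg
The match begins at position -70 in Cxcl1 and at position -96 in Cxcl2, counted from the start site. The motif was in 4.26% of all 32851 windows and in 6 of the 46 windows listed for 40 members, and neither window matched the other 3 motifs searched on both strands, which were TTCNNNGAA, GAAANNGAA and TATAAA. A match is a description of letters, and no factor was measured here.

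Cxcl1 was at 1.08, 0.450 and 2.17 CPM in the chow livers, 5.75, 8.46, 8.87 and 3.43 CPM in the saline livers and 19.5, 3.83, 11.7 and 8.71 CPM in the DT livers. All 4 saline livers lay above all 3 chow livers, and DT livers 2 and 4 were within the saline range. Its log2 fold change was 2.43 (SE 0.61, adjusted p = 0.041) in saline against chow, 0.72 (adjusted p = 0.317) in DT against saline and 3.15 (SE 0.63, adjusted p = 0.00713) in DT against chow. The call in saline against chow held in 4 of the 11 refits that each left out 1 liver, with the highest adjusted p, 0.163, without chow liver 1. That call also ended with limma-voom, without the filter on low counts and with GC correction.

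Cxcl2 had no count in any chow liver. In the saline livers it was at 0.408, 0.325, 0.878 and 0.426 CPM, and in the DT livers at 0.716, 0.499, 0.452 and 0.689 CPM, so that every liver on the diet held it. Against the limit of 3 counts per library, it was at least 7.35-fold higher in saline than in chow livers (edgeR adjusted p = 0.00291) and at least 8.50-fold higher in DT livers (adjusted p = 0.00217). Both calls held in every refit that left out 1 liver, and DT and saline livers overlapped (adjusted p = 0.742). Cxcl5, which binds the same receptor, was likewise without a count in chow. It was at 0.204, 0, 0.146 and 0 CPM in saline livers and 0.567, 0.0832, 0.424 and 0.610 CPM in DT livers, at least 6.07-fold higher in DT than in chow livers (adjusted p = 0.0246). That call ended without any 1 of the chow livers or DT liver 4 (adjusted p up to 0.0713).

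Cxcr2, the receptor of these ligands on neutrophils, was at 0.0752 ± 0.0212, 0.205 ± 0.148 and 0.278 ± 0.204 CPM in the 3 groups, with adjusted p from 0.201 to 0.715. Cxcr1 held 42 counts in all and was not tested. Of 6 neutrophil markers, 5 were tested and none was called by edgeR, DESeq2 or limma-voom in saline against chow, and 0 had an unadjusted p below 0.05 in any of these tools. In DT against saline, Retnlg rose (log2 fold change 1.86, SE 0.61, adjusted p = 0.048), 2 of the markers rose by DESeq2 and 1 by limma-voom, and 3 had an unadjusted p below 0.05 in each tool. Their summed level was 3.21 to 5.51 CPM in chow, 3.27 to 5.4 in saline and 3.93 to 12 in DT livers.

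Ccl2, the main ligand of the monocyte receptor Ccr2, also rose with diet and alcohol. It was at 0.0515, 0.0409 and 0.185 CPM in the chow livers, 0.489, 0.651, 1.79 and 0.745 CPM in the saline livers and 3.91, 1.17, 1.48 and 3.31 CPM in the DT livers. The groups formed 3 steps with some overlap between saline and DT livers and none between chow and the others. On the log2 scale the difference was 3.29 (SE 0.73, adjusted p = 0.0245) in saline against chow, 1.42 (adjusted p = 0.0741) in DT against saline and 4.71 (SE 0.75, adjusted p = 0.00361) in DT against chow. The first of these calls ended without chow liver 1, chow liver 2 or saline liver 3 (adjusted p up to 0.118), and with limma-voom (adjusted p = 0.158). Without DT liver 2, DT against saline also passed the threshold (1.65, adjusted p = 0.0206).

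Of the related monocyte-attracting ligands, Ccl7 was at 0.0479 ± 0.0462, 0.132 ± 0.160 and 0.205 ± 0.104 CPM and was not called. Ccl8 and Ccl12 were under the filter. Their receptor Ccr2 was at 0.309, 0.737 and 0.877 CPM in the chow livers, 3.26, 1.5, 3.44 and 2.13 CPM in the saline livers and 2.48, 2.16, 6.41 and 9.97 CPM in the DT livers. Chow livers lay below all others, and DT livers 1 and 2 lay within the saline range. Ccr2 rose in DT against chow by 3.03 (SE 0.61, adjusted p = 0.00733) on the log2 scale, a call that held in all 23 alternatives, and was at 2.00 (adjusted p = 0.0723) in saline against chow. Monocyte markers (5 genes, Ly6c2 among them) summed to 2.45 to 3.40 CPM in chow, 3.76 to 7.72 in saline and 5.29 to 12.4 in DT livers, with 1 of 5, Plac8, called in DT against chow, and their part in the Ccr2 result was not tested.

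**Figure D2:**
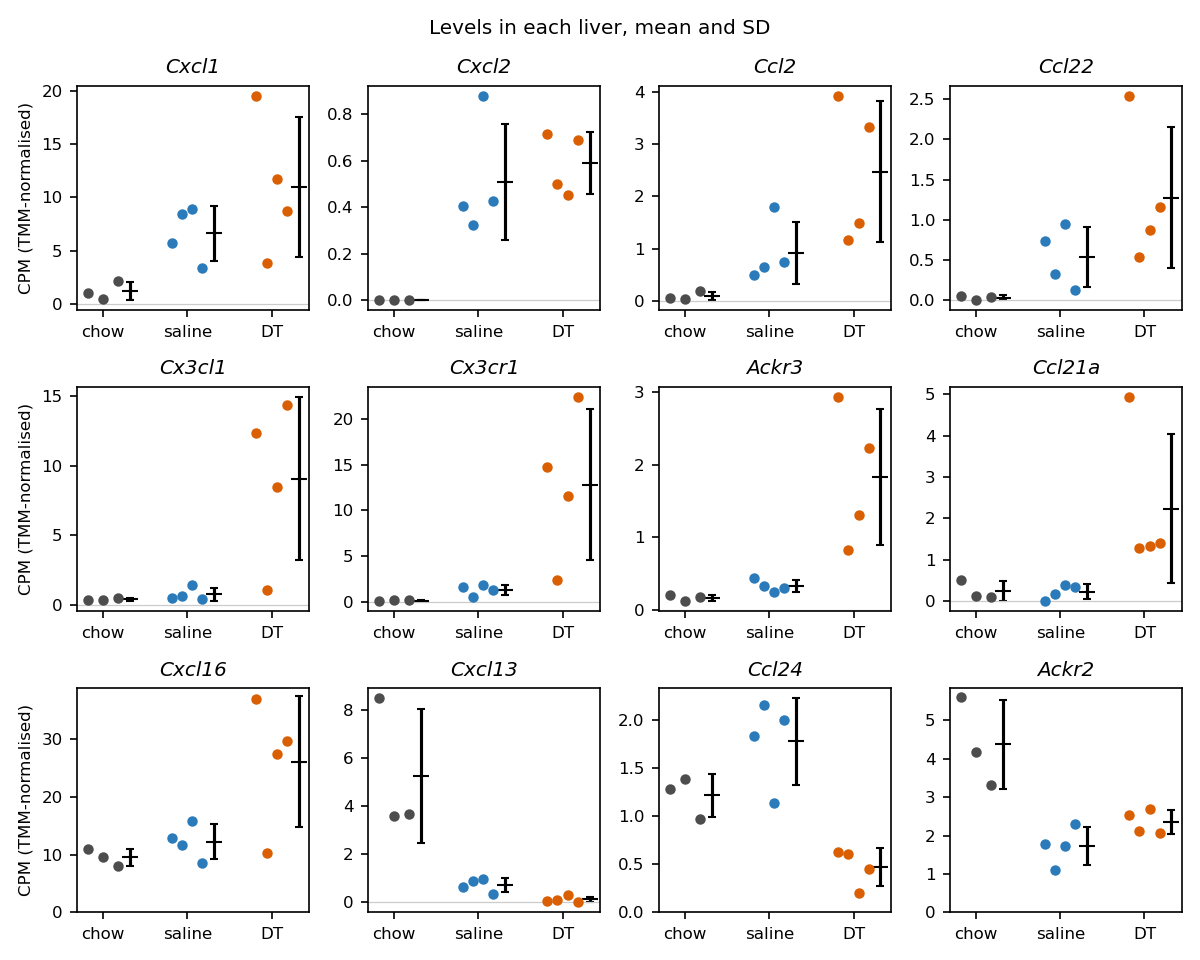
TMM-normalised CPM of 12 chemokine system genes (vertical axes, each from 0) in chow, saline and DT livers, 1 point a liver, with a bar for the mean and SD beside each group. Cxcl1, Cxcl2, Ccl2 and Ccl22 are already higher in saline livers, Cx3cl1, Ackr3 and Ccl21a are higher in DT livers, and Cxcl13 falls at both steps.

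Of Ccl3, Ccl4, Ccl5, Ccl6 and Ccl9, CC ligands made by macrophages and lymphocytes, 2 of 5 rose in DT against chow. In that comparison 56.8% of the tested members and 14.8% of all tested genes rose. Ccl3 was at 0.103, 0.0819 and 0.0461 CPM in the chow livers, 0.734, 0.0814, 0.439 and 0.213 CPM in the saline livers and 1.69, 0.291, 1.38 and 1.29 CPM in the DT livers. Saline liver 2 lay with the chow livers and DT liver 2 within the saline range. The log2 fold change was 3.89 (SE 0.84, adjusted p = 0.00929) in DT against chow, a call that ended with limma-voom (adjusted p = 0.0543), and 1.66 (adjusted p = 0.0766) in DT against saline. Ccl4 was at 0.0853 ± 0.0821, 0.314 ± 0.160 and 0.556 ± 0.106 CPM, with 2.62 (SE 0.72, adjusted p = 0.0237) in DT against chow. That call ended without chow liver 1 or chow liver 3 (adjusted p up to 0.078). It also ended with replicate numbers fitted as a block, or when only the 2 groups compared were fitted. Ccl5, a T cell and NK cell product, was at 1.11 ± 0.760, 1.60 ± 0.690 and 3.05 ± 1.30 CPM and was not called (adjusted p = 0.072 in DT against chow).

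Ccl9 and Ccl6, myeloid ligands of Ccr1 that rodents have, were among the 5 members with the most reads. Ccl9 was at 27.3, 29.8 and 28.3 CPM in the chow livers, 22.2, 16.4, 21.5 and 18.1 CPM in the saline livers and 50.7, 18.2, 27 and 23.7 CPM in the DT livers. Only DT liver 1 was above the chow range, and no comparison was called. Ccl6 was at 9.84, 10.4 and 9.41 CPM in the chow livers, 10.8, 10.01, 15.2 and 6.60 CPM in the saline livers and 13.8, 14.3, 12.6 and 13.3 CPM in the DT livers. Its DT livers lay between 12.6 and 14.3 CPM and its chow livers at or below 10.4 CPM, with a log2 fold change of 0.45 (SE 0.22, adjusted p = 0.152).

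Ccr1, a receptor of Ccl3, Ccl6 and Ccl9 on monocytes and neutrophils, was at 0.0444 ± 0.0462, 0.252 ± 0.226 and 1.22 ± 0.608 CPM and rose in DT against chow by 4.68 (SE 1.09, adjusted p = 0.0124) on the log2 scale, from 6 counts over the 3 chow livers. The call ended without chow liver 1 or chow liver 2 (adjusted p up to 0.0548) and with limma-voom. Ccr3, a receptor of eosinophils, was at or under 0.311 CPM in every liver and not called.

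Ccl22 and Ccl17 are ligands of Ccr4 and Ccl24 is a ligand of Ccr3 made by macrophages. Ccl22 was at 0.0515, 0 and 0.0461 CPM in the chow livers, 0.734, 0.325, 0.951 and 0.128 CPM in the saline livers and 2.54, 0.541, 0.875 and 1.15 CPM in the DT livers. The 3 chow libraries held 2, 0 and 2 counts, and every liver on the diet lay above them. Its log2 fold change was 4.02 (SE 1.00, adjusted p = 0.0385) in saline against chow and 5.27 (SE 0.99, adjusted p = 0.00591) in DT against chow. The first call held in 4 of 11 refits without 1 liver (adjusted p up to 0.141, without chow liver 2), and the second in all of them. The first also ended with limma-voom (adjusted p = 0.212) and with halved counts. Ccl24 moved the other way. It was at 1.29, 1.39 and 0.969 CPM in the chow livers, 1.83, 2.16, 1.13 and 2.00 CPM in the saline livers and 0.627, 0.603, 0.198 and 0.451 CPM in the DT livers. All 4 DT livers lay below all chow and saline livers. On the log2 scale the difference was -1.92 (SE 0.37, adjusted p = 0.00802) in DT against saline, which held in all 23 alternatives, and -1.38 (SE 0.39, adjusted p = 0.0274) in DT against chow, which ended in 5 of 11 refits without 1 liver (adjusted p up to 0.0926, without chow liver 2). DT liver 2 was among the 4 low livers here. Kupffer cell markers were lower in the same livers, at 111 to 184 CPM summed against 265 to 370 CPM in the saline and 253 to 333 CPM in the chow group, with 6 of 6 called in DT against saline, and their part in the Ccl24 result was not tested.

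Cxcl13, the B cell ligand of Cxcr5, fell at both steps. It was at 8.50, 3.60 and 3.69 CPM in the chow livers, 0.652, 0.895, 0.951 and 0.341 CPM in the saline livers and 0.0597, 0.0832, 0.282 and 0.0265 CPM in the DT livers. The 3 groups did not overlap, chow above saline above DT, and DT liver 2 lay with the other DT livers. The log2 fold change was -2.88 (SE 0.57, adjusted p = 0.0154) in saline against chow, -2.62 (SE 0.62, adjusted p = 0.0147) in DT against saline and -5.50 (SE 0.66, adjusted p = 0.00152) in DT against chow. The second and the third held in all 23 alternatives, and the first ended in 1 of them, without chow liver 1 (adjusted p = 0.094). The DT libraries held 4, 4, 20 and 2 counts of it. Cxcr5 was at 0.433 ± 0.158, 0.386 ± 0.123 and 0.407 ± 0.197 CPM and was not called, and B cell markers (5 genes) summed to 2.49 to 5.36, 2.20 to 4.24 and 2.25 to 6.24 CPM in the 3 groups. The summed Kupffer cell markers given above were lower in DT than in saline livers, as Cxcl13 was, and overlapped between saline and chow livers. Their part was not tested.

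Cx3cl1 and its receptor, Cx3cr1, both rose in DT against saline. Cx3cl1 (fractalkine) is made as a membrane protein by epithelium and endothelium, and Cx3cr1 marks monocytes and macrophages derived from them. Their windows are shown because both rose. The capitals in Cx3cl1 mark a match to TATAAA, beginning at position -6, a motif in 13.6% of all windows and 11 of the 46 windows of members. The window of Cx3cr1 has no match to the 4 motifs searched.
Cx3cl1 (chr8:94771930-94772229, plus strand): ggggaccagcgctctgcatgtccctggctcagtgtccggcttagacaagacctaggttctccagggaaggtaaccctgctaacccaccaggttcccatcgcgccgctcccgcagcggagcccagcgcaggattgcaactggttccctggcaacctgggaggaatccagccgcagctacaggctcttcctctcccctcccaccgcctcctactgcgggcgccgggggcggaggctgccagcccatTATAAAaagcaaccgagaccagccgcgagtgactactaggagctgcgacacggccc
Cx3cr1 (chr9:120068247-120068546, minus strand): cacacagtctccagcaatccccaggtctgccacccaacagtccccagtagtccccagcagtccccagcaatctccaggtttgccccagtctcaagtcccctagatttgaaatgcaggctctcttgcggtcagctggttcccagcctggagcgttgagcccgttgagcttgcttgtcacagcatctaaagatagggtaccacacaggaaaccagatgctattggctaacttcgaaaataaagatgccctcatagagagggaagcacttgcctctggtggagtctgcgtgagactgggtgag

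Cx3cl1 was at 0.361, 0.327 and 0.508 CPM in the chow livers, 0.489, 0.610, 1.46 and 0.426 CPM in the saline livers and 12.4, 1.08, 8.50 and 14.3 CPM in the DT livers. DT livers 1, 3 and 4 lay far above all others, and DT liver 2 lay within the saline range. Its log2 fold change was 3.59 (SE 0.67, adjusted p = 0.00749) in DT against saline and 4.51 (SE 0.81, adjusted p = 0.00513) in DT against chow. Both calls held in all 11 refits without 1 liver and ended with limma-voom (adjusted p = 0.0545 and 0.0821). Saline and chow livers overlapped (adjusted p = 0.544). Markers of cholangiocytes, the epithelium of bile ducts, followed the same livers. The 5 genes of that list summed to 344, 27.8, 221 and 395 CPM in DT livers 1 to 4, against 19.9 to 45.2 CPM in the 4 saline livers and 20.3 to 32.6 CPM in the 3 on chow, and 5 of 5 rose in DT against saline. Their part in the Cx3cl1 result was not tested.

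Cx3cr1 was at 0.103, 0.246 and 0.185 CPM in the chow livers, 1.63, 0.569, 1.87 and 1.36 CPM in the saline livers and 14.8, 2.46, 11.6 and 22.3 CPM in the DT livers. The 3 groups did not overlap, and DT liver 2, the lowest DT liver, still lay above all saline livers. On the log2 scale the difference was 2.89 (SE 0.74, adjusted p = 0.0445) in saline against chow, 3.23 (SE 0.57, adjusted p = 0.00673) in DT against saline and 6.13 (SE 0.79, adjusted p = 0.00209) in DT against chow. The rise in DT against saline held in all 23 alternatives, between 2.84 and 3.64, and that in DT against chow ended in 1, limma-voom (adjusted p = 0.0557). The rise in saline against chow held in 10 of 23 alternatives and ended with limma-voom (adjusted p = 0.517). Of the 11 refits without 1 liver it held in 3 (adjusted p up to 0.174, without chow liver 1). General macrophage markers (5 genes) summed to 149 to 248 CPM in chow, 169 to 274 in saline and 394, 177, 302 and 336 in DT livers 1 to 4. Of the 5, Cd68 and Itgam rose and Adgre1 fell in DT against saline, and their part in the Cx3cr1 result was not tested. Its exons overlap those of a gene model, Gm33858, and the strand setting of the count is not stated.

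Xcl1, made by T and NK cells, and Xcr1, its receptor on cross-presenting dendritic cells, make up the XC family. Xcl1 was at 0.0427 ± 0.0410, 0.160 ± 0.0871 and 0.332 ± 0.264 CPM and rose in DT against chow (adjusted p = 0.0432), a call kept in 2 of 11 refits without 1 liver (adjusted p up to 0.125, without chow liver 1). The gene model Gm20743 overlaps its exons on the other strand. Xcr1 was at 0.176 ± 0.0974, 0.500 ± 0.134 and 0.927 ± 0.490 CPM, and rose in DT against chow by 2.37 (SE 0.56, adjusted p = 0.013) on the log2 scale. That call ended without chow liver 1 or chow liver 3 (adjusted p up to 0.0594). Dendritic cell markers (5 genes) summed to 8.10 to 9.32, 8.62 to 10.2 and 8.72 to 19.7 CPM in the 3 groups, with 3 of 5 higher in DT than in chow livers, and their part was not tested.

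Of the ligands of Ccr7, which guide dendritic cells and T cells to lymphoid tissue, Ccl19 rose in saline against chow and Ccl21a in DT against saline. Whether the 2 ligands differ in this was not tested. Ccl19 had no count in any chow liver and was at 0.0815, 0.163, 0.476 and 0.319 CPM in saline and 0.776, 0.291, 0.409 and 0.292 CPM in DT livers. Every liver on the diet held it. It was at least 3.75-fold higher in saline than in chow livers (adjusted p = 0.0198) and at least 6.38-fold higher in DT livers (adjusted p = 0.00568). The first call ended without any 1 of the 3 chow livers (adjusted p up to 0.0715) and with replicate numbers fitted as a block. Ccl21a was at 0.515, 0.123 and 0.0923 CPM in the chow livers, 0, 0.163, 0.402 and 0.341 CPM in the saline livers and 4.93, 1.29, 1.33 and 1.41 CPM in the DT livers. All DT livers lay above all others, and DT liver 1 lay well above the other 3. The log2 fold change was 3.29 (SE 0.84, adjusted p = 0.0193) in DT against saline. The call ended without saline liver 2 (adjusted p = 0.0618) and with replicate numbers fitted as a block. In DT against chow it was 3.22 (SE 0.95, adjusted p = 0.0314), and that call ended in 4 of 11 refits without 1 liver, DT liver 1 among them (adjusted p up to 0.116). Ccl21a has near-identical copies, of which Ccl21b and Ccl21d held no count, so its value is uncertain by the authors' counting. Ccr7 was at 0.315 ± 0.134, 0.640 ± 0.388 and 1.39 ± 0.786 CPM and rose in DT against chow by 2.15 (SE 0.64, adjusted p = 0.0333) on the log2 scale, a call kept in 5 of 11 refits without 1 liver (adjusted p up to 0.12, without chow liver 2).

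Ccl25, the ligand of Ccr9, was at 4.62 ± 0.728, 3.53 ± 0.415 and 3.95 ± 0.868 CPM, and Ccl27a, a ligand of Ccr10, was at 3.28 ± 0.646, 3.03 ± 0.590 and 3.05 ± 0.593 CPM. Neither was called in any comparison, and both have exons that overlap those of a neighbouring gene. Ccr9 was at 0.137 ± 0.0426, 0.438 ± 0.308 and 0.656 ± 0.269 CPM and rose in DT against chow (log2 fold change 2.25, SE 0.66, adjusted p = 0.0313), which held in 6 of 11 refits without 1 liver (adjusted p up to 0.107, without chow liver 1). Its exons overlap those of Slc6a20a and AC165425.1 on the other strand and of Gm17200 on its own strand, so that their reads cannot all be told apart. Ccl28 was not called, and Ccl20 and the receptors Ccr6 and Ccr10 were under the filter.

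The interferon-inducible ligands of Cxcr3 draw in T cells. The window of Cxcl10 is shown because it holds matches both to GGANNTTCC, at position -158, and to the interferon motif GAAANNGAA, at position -213, which is in 8.56% of all windows and 7 of the 46 windows of members. The matches, in capitals, do not overlap.
Cxcl10 (chr5:92348840-92349139, minus strand): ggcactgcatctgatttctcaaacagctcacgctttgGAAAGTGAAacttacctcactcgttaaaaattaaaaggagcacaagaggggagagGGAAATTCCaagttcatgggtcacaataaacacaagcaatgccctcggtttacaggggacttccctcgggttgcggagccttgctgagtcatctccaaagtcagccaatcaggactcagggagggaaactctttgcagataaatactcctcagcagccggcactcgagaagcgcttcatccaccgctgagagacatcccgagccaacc

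Cxcl10 was at 1.11 ± 0.266, 3.47 ± 0.562 and 4.91 ± 3.62 CPM. DT liver 1, at 10.3 CPM, was high and the other DT livers were at 2.62 to 3.98, none above the saline range. It rose in DT against chow by 2.14 (SE 0.47, adjusted p = 0.00995) on the log2 scale in all 23 alternatives, and was at 1.64 (adjusted p = 0.0623) in saline against chow. Cxcl11 was at 1.49, 1.33 and 1.52 CPM in the chow livers, 1.67, 2.20, 1.76 and 2.04 CPM in the saline livers and 3.13, 2.81, 2.43 and 3.29 CPM in the DT livers. All DT livers lay above all others, yet the difference from saline was small, at 0.60 (SE 0.19, adjusted p = 0.0434) on the log2 scale. That call held in 1 of 11 refits without 1 liver (adjusted p up to 0.119, without DT liver 4), whereas the rise in DT against chow, 1.01 (SE 0.21, adjusted p = 0.00886), held in all. Cxcl9 was at 2.99, 6.28 and 11.3 CPM in the chow livers, 22, 12.3, 13.6 and 7.99 CPM in the saline livers and 15.3, 9.03, 6.41 and 10.7 CPM in the DT livers. Its groups overlapped and no comparison was called, with log2 fold changes of 1.02, -0.43 and 0.59. Exons of Cxcl10 overlap those of Art3, and exons of Cxcl11 those of the gene model Gm2673, each on the other strand, which the count may not separate.

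Their receptor Cxcr3, on activated T cells, was at 0.155, 0.491 and 0.323 CPM in the chow livers, 0.856, 0.529, 0.476 and 0.341 CPM in the saline livers and 2.24, 0.707, 1.30 and 1.83 CPM in the DT livers. Of the DT livers, 3 lay above all others, and DT liver 2 lay within the saline range. Its log2 fold change was 1.46 (SE 0.44, adjusted p = 0.037) in DT against saline and 2.21 (SE 0.52, adjusted p = 0.0126) in DT against chow. The first call held in 4 of 11 refits without 1 liver (adjusted p up to 0.10, without saline liver 4), and the second in 9 of 11. T cell markers (6 genes) summed to 2.88 to 3.69 CPM in chow, 4.43 to 7.34 in saline and 5.47 to 11.8 in DT livers. Of the 6, Cd8a rose in DT against saline, and their part in the Cxcr3 result was not tested.

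Cxcl16, a membrane-bound ligand of Cxcr6 that also takes up oxidised lipoprotein, was at 11, 9.66 and 8.03 CPM in the chow livers, 12.8, 11.7, 15.9 and 8.6 CPM in the saline livers and 36.9, 10.3, 27.4 and 29.6 CPM in the DT livers. DT livers 1, 3 and 4 lay above all others, and DT liver 2 lay within the saline range. On the log2 scale the difference was 1.09 (SE 0.32, adjusted p = 0.0319) in DT against saline and 1.45 (SE 0.35, adjusted p = 0.0154) in DT against chow. The first call held in 5 of 11 refits without 1 liver (adjusted p up to 0.0902, without saline liver 4). The second ended without chow liver 2 or chow liver 3, and both ended with limma-voom. Exons of Cxcl16 overlap those of Zmynd15 on the other strand, and without a stated strand setting the reads of both cannot be told apart. Cxcr6, on resident T and NKT cells, was at 0.394 ± 0.162, 0.828 ± 0.176 and 0.931 ± 0.703 CPM and not called.

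Cxcl14, an epithelial and stromal ligand, was at 1.91, 2.46 and 0.923 CPM in the chow livers, 1.63, 1.71, 3.04 and 1.83 CPM in the saline livers and 4.66, 1.83, 6.13 and 7.09 CPM in the DT livers. DT livers 1, 3 and 4 were high and DT liver 2 lay with the saline livers. Markers of stellate cells and fibroblasts (5 genes) summed to 428, 236, 469 and 523 CPM in DT livers 1 to 4, against 169 to 309 CPM in the saline and 135 to 174 CPM in the chow group, and 3 of 5 rose in DT against saline. The cholangiocyte markers given above were also high in DT livers 1, 3 and 4, and the part of either list in the Cxcl14 result was not tested. The log2 fold change of 1.26 (SE 0.41, adjusted p = 0.0481) in DT against saline held in 3 of 11 refits without 1 liver (adjusted p up to 0.132, without DT liver 4), and that of 1.48 (SE 0.46, adjusted p = 0.0392) in DT against chow in 2 of 11 (adjusted p up to 0.136, without chow liver 3).

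Cxcl12, a constitutive ligand of Cxcr4 made by stromal, endothelial and other cells, was at 368, 385 and 247 CPM in the chow livers, 295, 278, 231 and 287 CPM in the saline livers and 328, 251, 297 and 338 CPM in the DT livers. The groups overlapped and no comparison was called. Its receptor Cxcr4 was at 0.832 ± 0.684, 1.41 ± 0.989 and 5.37 ± 2.62 CPM. The receptor rose in DT against chow by 2.68 (SE 0.75, adjusted p = 0.0256) on the log2 scale, in 7 of 11 refits without 1 liver (adjusted p up to 0.0857, without chow liver 2). In DT against saline it was at 1.93 (adjusted p = 0.0507), and without DT liver 2 it passed (2.23, adjusted p = 0.0137).

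Per kilobase of exon, the scale on which genes can be compared, Cxcl12 made up 55.1% ± 6.46 (SD, n = 3) of summed ligand RNA in chow, 47.8% ± 7.35 (n = 4) in saline and 39.8% ± 6.45 (n = 4) in DT livers. Ccl9, Ccl6, Cxcl9 and Cxcl16 came next in saline livers. Without Cxcl12, the ligands summed to 34.1, 30.6 and 32.8 CPM per kilobase in chow livers, 40.1, 35.0, 45.4 and 27.3 in saline livers and 87.7, 34.6, 54.9 and 59.1 in DT livers. The 3 DT livers other than DT liver 2 thus lay above every saline and chow liver. Signalling receptors summed to 1.54, 2.35 and 2.14 CPM per kilobase in chow, 4.83, 3.11, 5.35 and 3.23 in saline and 12.7, 3.78, 11.9 and 14.8 in DT livers. Chow livers lay below all livers on the diet, and DT liver 2 lay within the saline range.

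**Figure D3:**
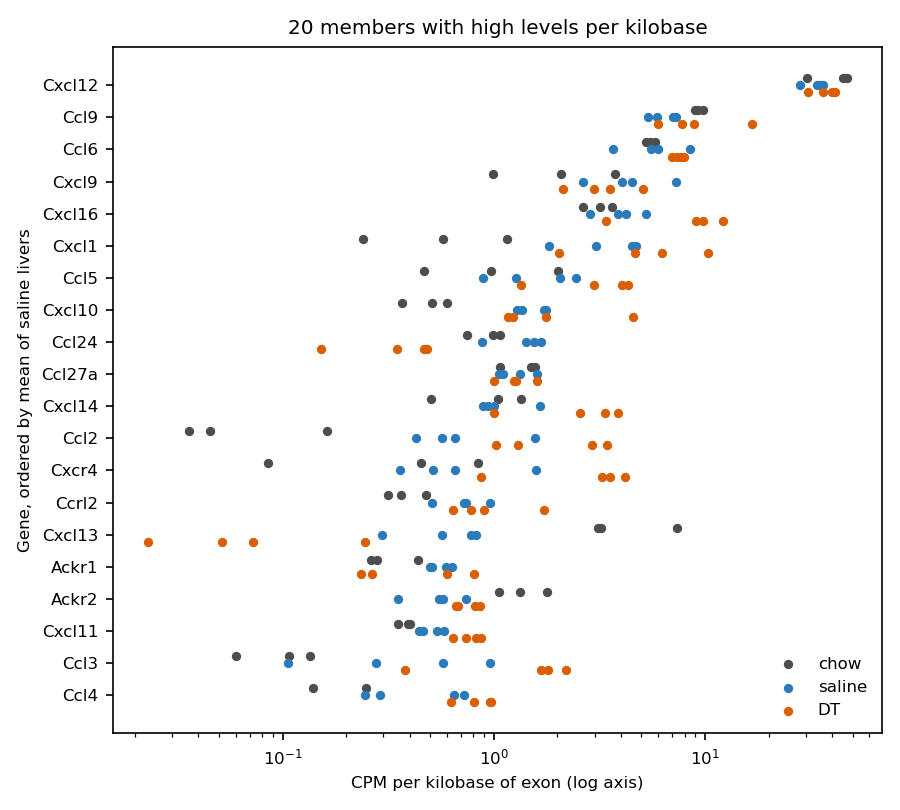
CPM per kilobase of exon (log axis) of 20 members with high mean levels in saline livers, in their order, 1 point a liver, coloured by group. Values of 0, as for Ccl4 in chow liver 1, cannot be drawn on this axis. Cxcl12 lies above all other ligands and receptors in every liver, and the 3 groups overlap there.

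The atypical receptors moved in different directions. Ackr3, a scavenger of Cxcl12 and Cxcl11, was at 0.206, 0.123 and 0.185 CPM in the chow livers, 0.448, 0.325, 0.256 and 0.298 CPM in the saline livers and 2.93, 0.832, 1.31 and 2.23 CPM in the DT livers. All DT livers lay above all saline livers, which lay above all chow livers. The log2 fold change was 2.45 (SE 0.41, adjusted p = 0.00624) in DT against saline and 3.41 (SE 0.50, adjusted p = 0.00322) in DT against chow, and both calls held in all 23 alternatives, between 2.15 and 2.83 for the first. Ackr2, a scavenger of inflammatory CC ligands such as Ccl2, was at 5.61, 4.18 and 3.32 CPM in the chow livers, 1.79, 1.10, 1.72 and 2.30 CPM in the saline livers and 2.54, 2.12, 2.68 and 2.07 CPM in the DT livers. All chow livers lay above all livers on the diet. It fell in saline against chow, at -1.34 (SE 0.27, adjusted p = 0.0165) on the log2 scale, and in DT against chow, at -0.89 (SE 0.27, adjusted p = 0.0346). The first call ended without chow liver 1 (adjusted p = 0.0967) or chow liver 2, and the second ended in 4 of 11 refits without 1 liver (adjusted p up to 0.157, without chow liver 1) and with total count scaling (adjusted p = 0.271).

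Ackr1, found on venular endothelium and red cells, was at 0.460 ± 0.138, 0.787 ± 0.0940 and 0.672 ± 0.387 CPM, and Ackr4, a scavenger of Ccl19, Ccl21a and Ccl25, was at 1.91 ± 0.347, 1.95 ± 0.322 and 1.19 ± 0.647 CPM. Neither was called, and both share exon sequence with another gene. Ccrl2, which binds the attractant chemerin, was at 1.00 ± 0.218, 1.90 ± 0.477 and 2.63 ± 1.28 CPM and rose in DT against chow by 1.39 (SE 0.37, adjusted p = 0.0224) on the log2 scale. That call ended without chow liver 1 or chow liver 2 (adjusted p up to 0.0892).

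**Figure D4:**
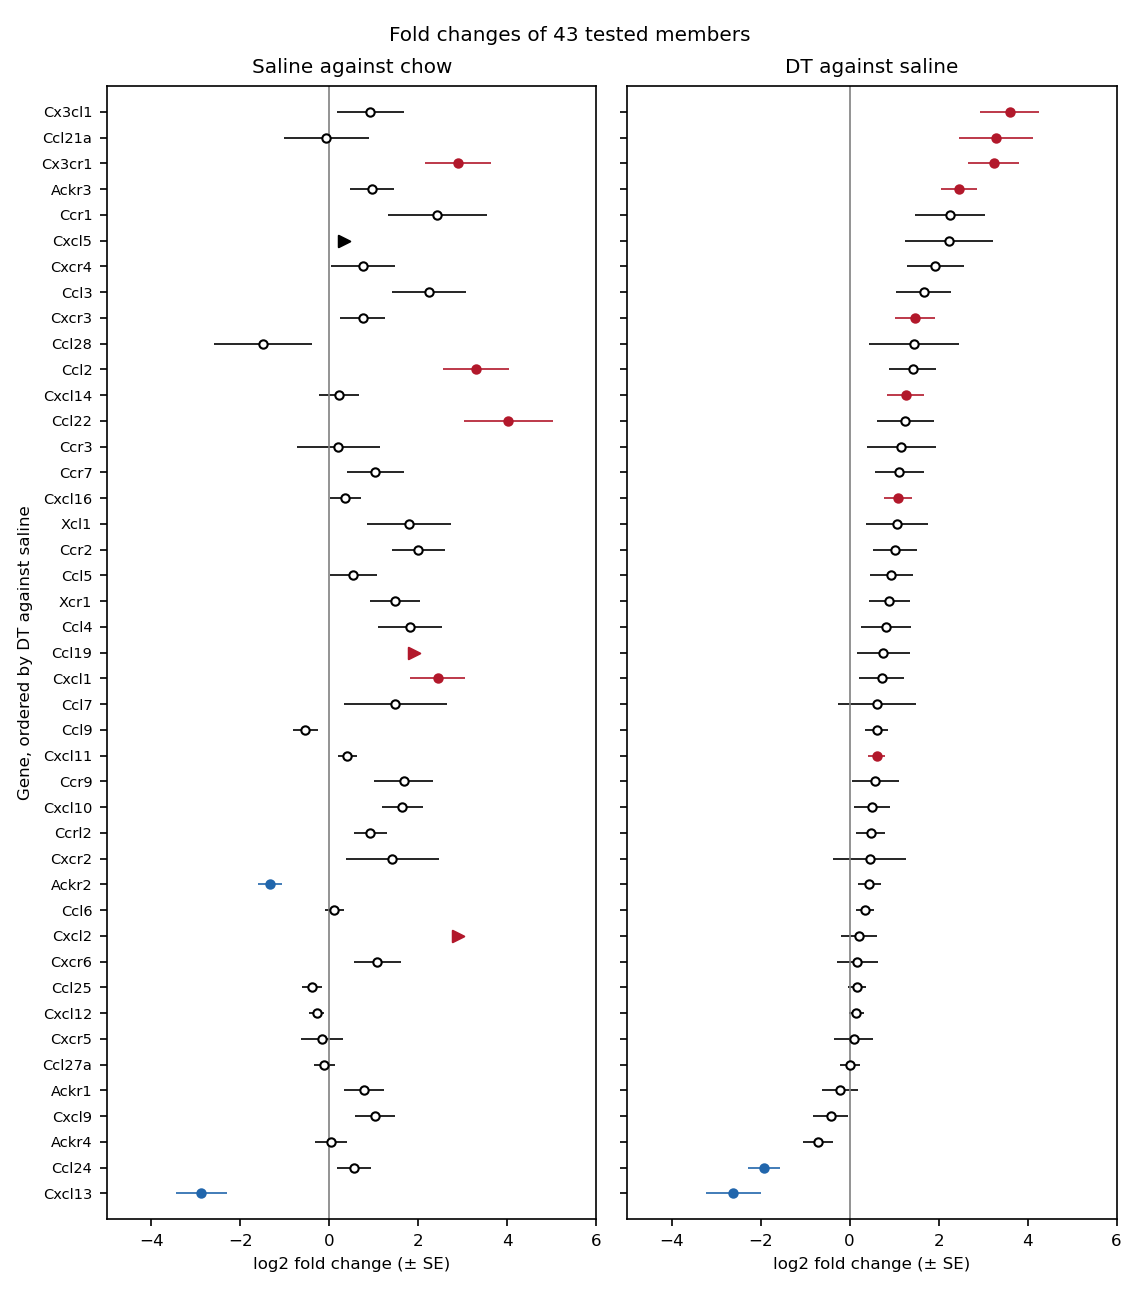
Log2 fold changes with their SE (horizontal axes) of 43 tested genes, ordered by DT against saline, in saline against chow (left) and DT against saline (right). Filled red and blue points are called higher or lower, open points are not called, and triangles are lower bounds for genes with no count in chow. Cx3cl1, Ccl21a and Cx3cr1 lie highest on the right, and Cxcl13 is the lowest point in both panels.

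DT liver 2 was often the lowest DT liver. Of the 8 members that rose in DT against saline, it was the lowest DT liver for 7 and within the saline range for 4 (Cx3cl1, Cxcr3, Cxcl14 and Cxcl16). Each other DT liver lay above the saline range for all 8. These 8 were chosen by their rise in DT livers, so that the high values follow in part from that choice. Over the 44 tested members, DT liver 2 was the lowest DT liver for 32. It lay above the saline range in 8 (18.2%), where the other DT livers did in 27 to 29 (61.4% to 65.9%). Of all tested genes, 28.4% lay above the saline range in DT liver 2 and 36.5% to 38.8% in the other DT livers. Its Clec4f, at 15.2 CPM against 6.18 to 9.06 in the other DT livers, was still below every saline liver. Without DT liver 2, 17 of 44 tested members rose and 3 fell in DT against saline. Of all tested genes, 22.6% then rose (3827 higher and 2997 lower). The members so added were Ccl2, Ccl3, Ccl9, Cxcl5, Ccr1, Ccr2, Ccr7, Cxcr4 and Xcr1, which rose, and Ackr4, which fell.

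Over the 11 livers, the tested members most like Ackr3 by Spearman's rho of log2 CPM were Cxcl11 (0.92), Cx3cr1 (0.89) and Cxcr3 (0.88). Those most like Cx3cr1 were Ccr1 (0.95), Cxcl5 (0.94) and Ccl4 (0.94), and those most like Cx3cl1 were Ccl2 (0.92), Cxcr4 (0.91) and Ccl22 (0.88). The 11 points share their groups, and the values are a description.

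Neighbouring members were not all called together. The counts that follow are for DT against chow, where 56.8% of the tested members and 14.8% of all tested genes rose. Of the receptor genes Ccr9, Cxcr6, Xcr1, Ccr1, Ccr3 and Ccr2 on chromosome 9, all 6 tested, 4 rose. Of Ccl5, Ccl9, Ccl6, Ccl3 and Ccl4 on chromosome 11, 2 of 5 rose. Of Cxcl5, Cxcl1 and Cxcl2, of 1 run of members on chromosome 5, all 3 rose. Cxcl3 and Cxcl15, which lie between Cxcl5 and Cxcl1, held 6 and 0 counts and were left out. Of Cxcl9 and Cxcl10, neighbours elsewhere on that chromosome, 1 of 2 rose. Ccl22 and Cx3cl1, neighbours on chromosome 8, rose at different steps, Ccl22 in saline against chow and Cx3cl1 in DT against saline. Whether their responses differ was not tested.

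Genes that act with chemokines were counted from 4 further lists. Of all tested genes, 2.45% rose and 3.13% fell in saline against chow. The shares were 14.3% and 7.62% in DT against saline, and 14.8% and 8.16% in DT against chow. Of 20 genes of receptor signalling and desensitisation, 9 rose in DT against saline and 14 in DT against chow, with list medians of 0.63 and 0.92 where all genes had 0.02 and -0.02. Those with the smallest p in DT against saline were Arrb1 (an arrestin, log2 fold change 0.80, SE 0.18, adjusted p = 0.0126), the receptor kinases Grk5 (1.32, SE 0.30, adjusted p = 0.013) and Grk3 (1.94, SE 0.46, adjusted p = 0.0147), and the arrestin Arrb2 (0.63, SE 0.16, adjusted p = 0.0186). In saline against chow edgeR and limma-voom called none of the 20 and DESeq2 called 2, with 5 at an unadjusted p below 0.05 in edgeR.

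Of 13 tested inducing cytokines and transcription factors, Irf7, of the interferon response, rose in saline against chow by 0.80 (SE 0.17, adjusted p = 0.0179) on the log2 scale. In DT against saline the NF-kB genes Nfkb2 (0.84, SE 0.23, adjusted p = 0.0247), Relb (1.55, SE 0.39, adjusted p = 0.0182) and Tnfaip3 (1.15, SE 0.34, adjusted p = 0.0348) rose with the cytokine Lta. Lta was at or under 0.186 CPM on average in each group. In DT against chow, 5 rose (Ltb, Nfkb2, Relb, Tnfaip3 and Irf7).

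Of 9 genes that cut or display chemokines, Mmp12, a macrophage protease, rose in saline against chow by 4.53 (SE 0.93, adjusted p = 0.0176) on the log2 scale, with a mean of 9.76 CPM ± 10.3 (SD, n = 4) in saline livers. In DT against saline Dpp4, which trims ligands such as Cxcl10, fell (-0.93, SE 0.22, adjusted p = 0.0159), as did the heparan sulfate enzyme Ndst1 (-0.35, SE 0.10, adjusted p = 0.034). In DT against chow Mmp12 rose and Sdc4, a heparan sulfate proteoglycan, fell (-0.69, SE 0.20, adjusted p = 0.0315). Of 10 platelet ligands and other attractants and receptors, Fpr1, the formyl peptide receptor, fell in DT against saline (-1.20, SE 0.22, adjusted p = 0.00694) and in DT against chow, and Cd74, a receptor of Mif and the invariant chain of class II, rose in DT against chow (1.94, SE 0.34, adjusted p = 0.0049).

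The 10 members under the filter (Ccl8, Ccl11, Ccl12, Ccl17, Ccl20, Cxcl17, Ccr4, Ccr6, Ccr10 and Cxcr1) held 12 to 61 counts in all and at most 0.358 CPM in a liver, and differences between groups were not detectable at this depth. The 10 named rows left out held at most 6 counts, 6 of them none. Cxcl12, Ccl9, Ccl6 and Cxcl9, which with Cxcl16 held the most reads, were called in no comparison.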

How the data were processed

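Poly(A) RNA of 11 livers was sequenced, per the labels. The authors deposited raw counts per Ensembl gene. Reads were aligned with STAR to GRCm39 and counted with featureCounts, per the submitters' processing notes, and versions, strand setting and the handling of mates are not given in the sources used here. Low counts (1 to 50) were even in 74.9% to 80.8% of cases, so both mates may have been counted, and counts were also halved as an alternative. The extraction text describes CD45+ cells, but the sample labels name whole liver. Hepatocyte markers were therefore checked.

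CPM values were scaled with TMM factors. All 11 livers entered 1 edgeR quasi-likelihood fit (edgeR 4.0.16, limma 3.58.1, DESeq2 1.42.0, R 4.3.3) with filterByExpr, 1 mean a group, robust settings and 8 residual degrees of freedom. Common biological variation between livers came to 30.1%. P-values are two-sided and were adjusted by Benjamini-Hochberg over 17038 genes at 0.05. The p-values set differences between group means against the spread between these livers, which the fit takes as independent. Log2 CPM used a prior count of 2, and exon lengths, overlaps and neighbours came from a GRCm38 annotation matched by Ensembl identifier. Calls were checked on simulated counts, where part of the changed genes were missed, so that a gene not called may still differ. In 23 alternatives, filters, scaling, tools, the design, GC content and the livers included were changed. DESeq2 used its own scaling and no such filter, and fits of fewer livers filtered anew. Leaving out DT livers 1 and 2 together was chosen after seeing the data.

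Values in every liver are given for the called members with the smallest p in each comparison (up to 12), the 5 members with the most reads, and called members at 3 counts or fewer throughout a group. One tested member, kept in the counts of members, and a listed gene are not reported here. Members and lists were chosen with earlier results of these data known.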

Additional observations from a re-analysis of the deposited data

Results flagged for a closer look

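In 86 groups of 4 livers, saline and DT for each of 43 tested members, 3 held a liver far from the other 3 by Dixon's criterion, and chance alone gives about 1 in 20 such groups. Ccl21a was at 4.93 CPM in DT liver 1 and at 1.29 to 1.41 in the other DT livers. Ccl25 was at 2.66 CPM in DT liver 1, below the 4.32 to 4.51 of the others. Cxcl14 was at 3.04 CPM in saline liver 3 and at 1.63 to 1.83 in the others.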

How the results depend on the processing

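The number of members called, 8 in saline against chow, 10 in DT against saline and 28 in DT against chow, stayed within 1.5-fold under most alternatives. In saline against chow it was 4 with limma-voom and 13 without DT livers 1 and 2 together. In DT against saline it was 17 with total count scaling, 6 when only the 2 groups were fitted and 16 without DT livers 1 and 2 together. In DT against chow it was 16 with limma-voom. Those that no longer passed there were Ccl21a, Ccl3, Ccr1, Ccr7, Ccr9, Ccrl2, Cx3cl1, Cx3cr1, Cxcl14, Cxcl16, Cxcr4 and Xcl1. Leaving out 1 liver gave 1 to 11 calls in saline against chow, 5 to 20 in DT against saline and 15 to 33 in DT against chow, the lowest against chow, 1 and 15, without chow liver 1. These fits hold fewer livers or estimate the spread otherwise, and the cause of each shift was not tested. No called fold change changed sign in any alternative. With each called gene of a comparison counted once per alternative, the call still passed in 859 cases and no longer passed in 189. Total count scaling moved the median log2 fold change of all genes to 0.13, 0.36 and 0.44, and GC correction to -0.02, -0.16 and -0.22. The labels do not say that replicate numbers pair the livers. Same-numbered livers correlated between -0.16 and 0.18 in their deviations from the group means. Livers of different numbers were not correlated, so whether the numbers pair livers was not tested. With a replicate block there were 6, 8 and 22 calls, not all of the same members. In saline against chow Ccl19 and Cx3cr1 no longer passed. In DT against saline Ccl21a, Cxcl11, Cxcl14, Cxcl16 and Cxcr3 no longer passed, and Ccl3, Ccr1 and Cxcr4 did. In DT against chow Ackr2, Ccl21a, Ccl4, Cxcl14, Cxcr3, Xcl1 and Xcr1 no longer passed, and Ccl5 did. The 10 members under the filter, at 24 counts or fewer in every liver, are limited by depth.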
